A study of Mus musculus with 9 samples.

Results

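The charged multivesicular body proteins, or CHMPs, are the subunits of the membrane-remodelling machine ESCRT-III. The 10 genes described here are Chmp1a, Chmp1b, Chmp2a, Chmp2b, Chmp3, Chmp4b, Chmp4c, Chmp5, Chmp6 and Chmp7, which are 10 of the 22396 genes in the deposited counts. They were taken by name, and the family was selected on its CPM by group (each count scaled to the total of its library) in these same libraries, so the values of its members are a description, given with no p-value and no call. All 10 had enough counts to be among the 12744 genes that were tested.

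ESCRT-III subunits are small helical proteins that assemble into filaments inside narrow membrane necks and close them, and the ATPase VPS4 then takes the filaments apart. Cells use this machine to form the vesicles of multivesicular bodies, to separate daughter cells at the end of division and to seal holes in the nuclear envelope. In pigment cells, multivesicular endosomes are also the compartments from which melanosomes develop.

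RNA bound to FLAG-tagged RIG-I, a cytosolic sensor of viral and other unusual RNA, was sequenced from B16F10 cells, a mouse melanoma line. The cells carried the tagged RIG-I with either a control shRNA (shCtr) or an shRNA against OSGEP, the enzyme that makes the t6A modification of tRNAs (shOSGEP#1 or shOSGEP#2). The labels give the genotype of all groups as WT. There were 3 libraries per group, from independent experiments, and the comparisons ask which RNAs differed in RIG-I precipitates when OSGEP was depleted. RNA of the whole cells was not analysed here, so less mRNA in the cells and less recovery with RIG-I cannot be told apart, nor can fewer cells and less RNA per cell.

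Depth is given as the sum of gene counts, by replicate number. The shCtr libraries held 40333037 (replicate 1), 47750758 (replicate 2) and 41805753 (replicate 3) counts. Those of shOSGEP#1 held 34551436, 50224299 and 30697653 counts, and those of shOSGEP#2 held 25460689, 568995 and 14914731 counts. The shallow library, shOSGEP#2 replicate 2, had counts for 4196 genes, against 11733 to 13958 in the other 8 libraries. Its median Spearman correlation with the others across genes, which are not independent replicates, was 0.568, against medians of at least 0.95 for the others. A floor of 3 counts was 5.27 CPM in the shallow library and at most 0.201 CPM elsewhere. The shallow library is therefore shown apart, and group values of shOSGEP#2, and statements on which groups overlap, rest on the other 8 libraries, with replicates 1 and 3 of shOSGEP#2. Intervals and floors cover counting error only.

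Chmp7 (ENSMUSG00000034190) encodes the subunit that resembles ESCRT-II in its first part and ESCRT-III in its second, and that starts ESCRT-III assembly at the nuclear envelope together with LEMD2. It had 119.7, 136 and 93.9 CPM in the shCtr libraries. In shOSGEP#1 it had 32.2, 22.7 and 21.8 CPM, and in shOSGEP#2 replicates 1 and 3 it had 68.7 and 92.1 CPM. The 3 groups did not overlap, with shOSGEP#1 lowest, shOSGEP#2 between and shCtr highest. The gap between shOSGEP#2 and shCtr was narrow, from 92.1 to 93.9 CPM. Group means were 117 ± 21.3 CPM in shCtr (SD, n = 3), 25.5 ± 5.74 in shOSGEP#1 (SD, n = 3) and 80.4 ± 16.5 in shOSGEP#2 (SD, n = 2). The shCtr mean was 4.56 times that of shOSGEP#1 and 1.45 times that of shOSGEP#2. The log2 fold change against shCtr was −2.20 ± 0.21 (SE of the fit) in shOSGEP#1 and −0.64 ± 0.22 in shOSGEP#2. Between the shRNAs it was 1.57 ± 0.22, higher in shOSGEP#2. Of the 12744 genes tested, 162 had a lower log2 fold change than Chmp7 in shOSGEP#1 and 2325 in shOSGEP#2.

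Chmp6 (ENSMUSG00000025371) encodes the subunit that links ESCRT-II to ESCRT-III on endosomes. It had 111.9, 117 and 108 CPM in shCtr, 100.2, 95.01 and 57.2 CPM in shOSGEP#1, and 52.4 and 68.8 CPM in shOSGEP#2. All 5 shOSGEP libraries lay below the 3 shCtr libraries, and shOSGEP#1 replicate 3 lay among the shOSGEP#2 libraries. The log2 fold change against shCtr was −0.43 ± 0.20 (SE) in shOSGEP#1 and −0.99 ± 0.23 in shOSGEP#2, the first −0.22 without shOSGEP#1 replicate 3.

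CHMP4 proteins form the main filament. Chmp4b (ENSMUSG00000038467) had 183, 149.7 and 162 CPM in shCtr, 157, 166 and 158 CPM in shOSGEP#1, and 160.05 and 136 CPM in shOSGEP#2. Its groups overlapped in each of the 3 comparisons, with log2 fold changes of −0.05 ± 0.14 and −0.25 ± 0.16 (SE) against shCtr. With 1 library left out these ran from −0.12 to 0.025 and from −0.41 to −0.11. Chmp4c (ENSMUSG00000027536), whose product delays abscission when chromatin is trapped between daughter cells, had 1.51, 1.30 and 1.29 CPM in shCtr and 0.839, 0.657 and 0.880 CPM in shOSGEP#1. In shOSGEP#2 it had 3.93 and 8.25 CPM. The shOSGEP#1 libraries lay below every shCtr library and the shOSGEP#2 libraries above every one. The log2 fold change was −0.80 ± 0.51 (SE) in shOSGEP#1 and 2.04 ± 0.55 in shOSGEP#2. These values rest on 27 to 123 counts per library. The annotation places 330 of the 10087 exon bases of Chmp4c opposite exons of Snx16.

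CHMP3 and the CHMP2 proteins join the filament after CHMP4, and CHMP2 proteins bind VPS4. Chmp3 (ENSMUSG00000053119) had 93.1, 96.4 and 93.1 CPM in shCtr, 113, 117 and 129 CPM in shOSGEP#1, and 134 and 92.7 CPM in shOSGEP#2. The shOSGEP#1 libraries were all above shCtr, with a log2 fold change of 0.33 ± 0.16 (SE), and the shOSGEP#2 libraries lay on both sides of shCtr (0.18 ± 0.18, or −0.15 without replicate 1 and 0.44 without replicate 3). Chmp2a (ENSMUSG00000033916) had 55.8, 40.0 and 40.4 CPM in shCtr, 39.9, 36.6 and 54.2 CPM in shOSGEP#1, and 42.5 and 51.2 CPM in shOSGEP#2. Its groups overlapped, and its log2 fold changes against shCtr were −0.07 ± 0.20 and −0.05 ± 0.22 (SE), the second of which became 0.044 when libraries were scaled by their totals alone. With 1 library left out they ran from −0.26 to 0.098 and from −0.16 to 0.13. Chmp2b (ENSMUSG00000004843), whose human counterpart is mutated in a form of frontotemporal dementia, had 162, 170.2 and 169.9 CPM in shCtr, 135, 129 and 157 CPM in shOSGEP#1, and 129 and 145 CPM in shOSGEP#2. All 5 shOSGEP libraries lay below shCtr, with log2 fold changes of −0.26 ± 0.13 and −0.39 ± 0.15 (SE).

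CHMP1 proteins recruit VPS4 and the microtubule-severing enzyme spastin, and CHMP5 binds the VPS4 cofactor LIP5. Chmp1a (ENSMUSG00000000743) had 187, 248 and 259 CPM in shCtr, 141, 141 and 109.9 CPM in shOSGEP#1, and 158 and 244 CPM in shOSGEP#2. The shOSGEP#1 libraries lay below shCtr, with a log2 fold change of −0.83 ± 0.19 (SE), while shOSGEP#2 overlapped shCtr (−0.31 ± 0.22, or −0.05 without its replicate 1 and −0.62 without its replicate 3). Chmp1b (ENSMUSG00000109901) had 58.2, 60.6 and 72.8 CPM in shCtr, 77.4, 74.5 and 139 CPM in shOSGEP#1, and 38.8 and 68.9 CPM in shOSGEP#2. It was above shCtr in the 3 shOSGEP#1 libraries (log2 fold change 0.59 ± 0.26, SE), most of all in replicate 3, and it overlapped shCtr in shOSGEP#2 (−0.35 ± 0.30). Without shOSGEP#1 replicate 3 the first value was 0.24, and the second was −0.02 without shOSGEP#2 replicate 1 and −0.78 without replicate 3. Chmp5 (ENSMUSG00000028419) had 59.7, 78.0 and 62.7 CPM in shCtr, 73.2, 75.5 and 89.7 CPM in shOSGEP#1, and 48.2 and 58.1 CPM in shOSGEP#2. It overlapped shCtr in shOSGEP#1 (log2 fold change 0.24 ± 0.16, SE, from 0.14 to 0.36 with 1 library left out) and lay below shCtr in shOSGEP#2 (−0.43 ± 0.18).

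**Figure D1:**
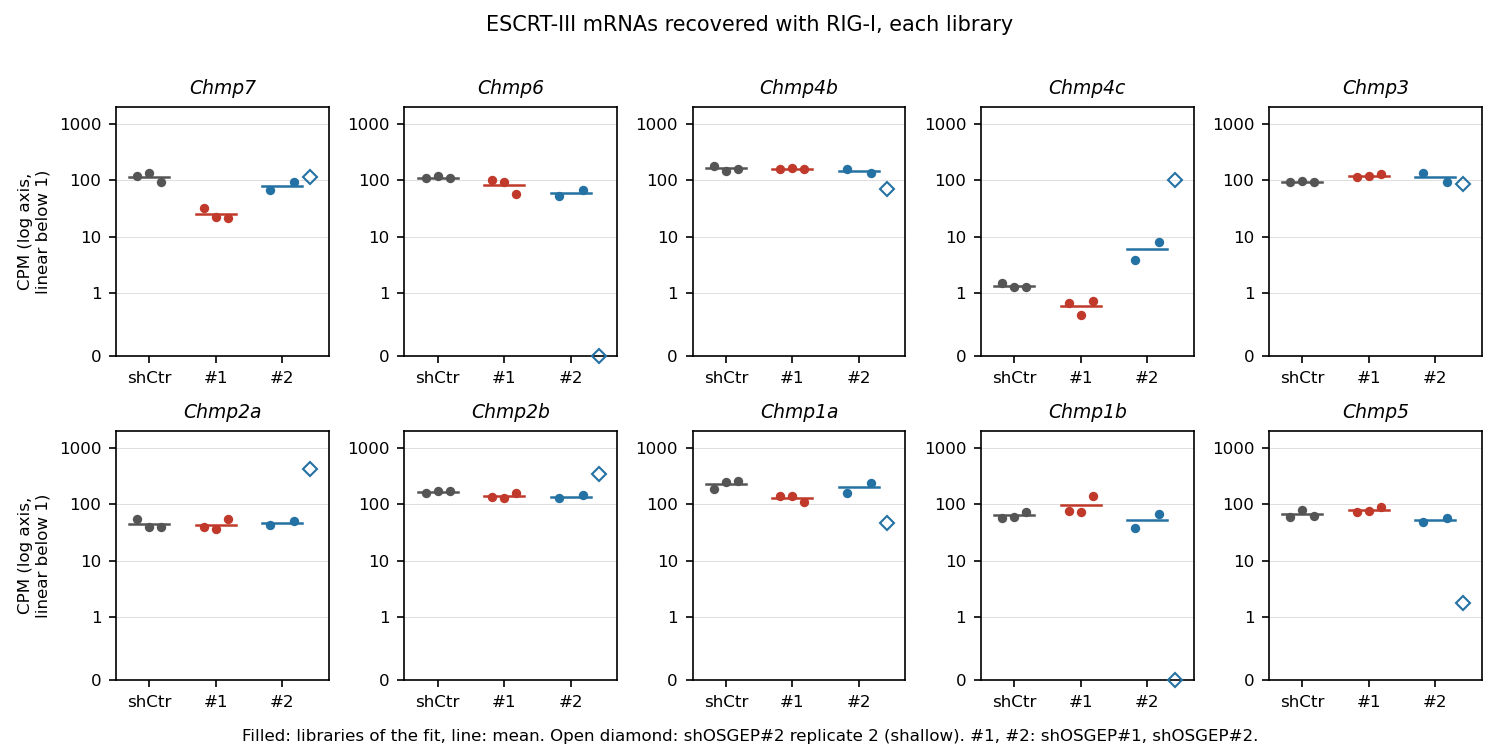
CPM of the 10 ESCRT-III genes in each library (log axis, linear below 1) for shCtr, shOSGEP#1 and shOSGEP#2, with filled points for the 8 libraries of the fit, a line at their group mean and an open diamond for the shallow library, shOSGEP#2 replicate 2. Chmp7 sits between 21.8 and 32.2 CPM in shOSGEP#1, under every shCtr library (93.9 to 136 CPM), and Chmp4c sits at or under 8.25 CPM in the 8 libraries.

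In shOSGEP#1 against shCtr, 7 of the 10 genes had groups that did not overlap, 5 of them lower (Chmp1a, Chmp2b, Chmp4c, Chmp6 and Chmp7) and 2 higher (Chmp1b and Chmp3). Groups did not overlap for 45.3% of all genes tested in that comparison. The median log2 fold change of the 10 was −0.168, beside 0.00211 for all genes tested. Since the family was selected on these values, nothing is read from these counts or those of the other comparisons.

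In shOSGEP#2 against shCtr, 5 of the 10 genes had groups that did not overlap (52.3% of all genes), with Chmp2b, Chmp5, Chmp6 and Chmp7 lower and Chmp4c higher. The median log2 fold change of the 10 was −0.329, beside −0.0575 for all genes. Both comparisons use the same 3 shCtr libraries.

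In shOSGEP#2 against shOSGEP#1, Chmp1a, Chmp4c and Chmp7 were higher and Chmp1b and Chmp5 lower without overlap (49.6% of all genes did not overlap). The log2 fold change was 2.85 ± 0.56 (SE) for Chmp4c, −0.94 ± 0.30 for Chmp1b, −0.66 ± 0.18 for Chmp5 and 0.53 ± 0.21 for Chmp1a. For Chmp1b the value was −0.59 without shOSGEP#1 replicate 3, and for Chmp1a it was 0.22 without shOSGEP#2 replicate 3.

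**Figure D2:**
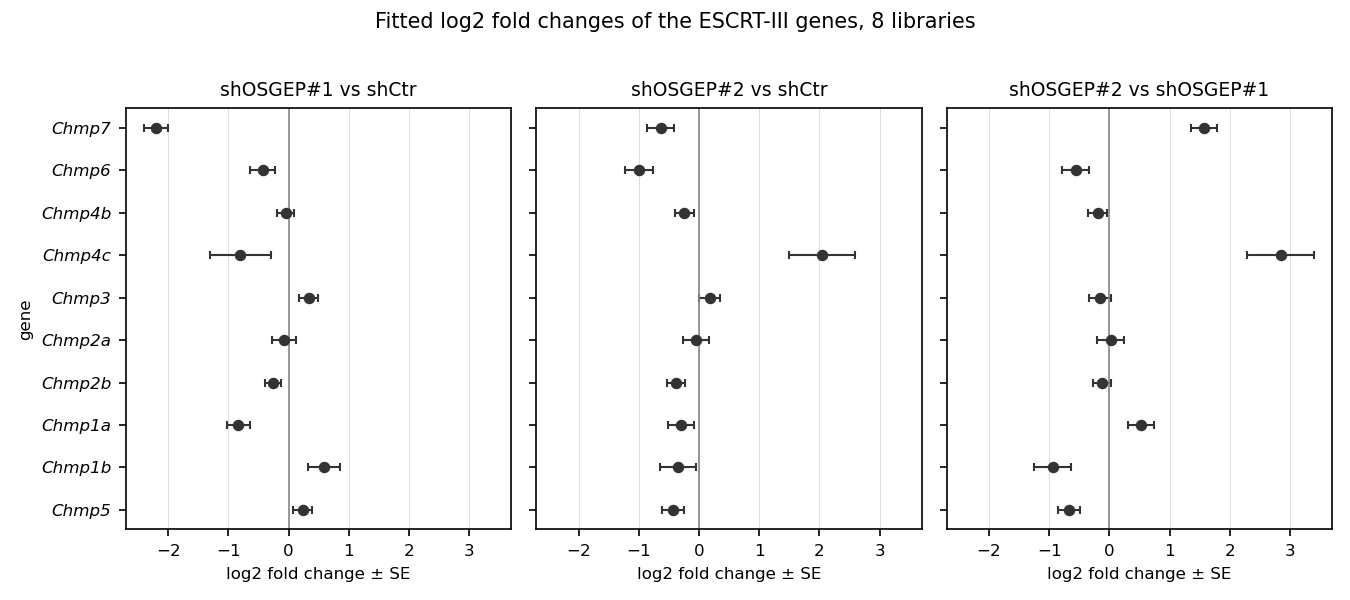
Log2 fold change of each ESCRT-III gene in the 3 comparisons, with points for the estimates of the 8-library fit and bars for their standard errors. Chmp7 stands at −2.20 in shOSGEP#1 and −0.64 in shOSGEP#2, and Chmp4c at −0.80 and 2.04.

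In the shallow library, 8 of the 10 genes had counts and their values spread widely. Chmp7 had 65 counts there, or 114 CPM (exact 95% interval 88.2 to 146), above the other shOSGEP#2 libraries, with an interval that takes in replicate 3 (92.1 CPM) and not replicate 1 (68.7 CPM). This value of Chmp7 lay within the range of the shCtr libraries (93.9 to 136 CPM). Chmp2a had 239 counts, or 420.0 CPM, and Chmp6 and Chmp1b had 0 counts, where the mean level of the other shOSGEP#2 libraries would have given 34.5 and 30.6 counts. The 10 genes together took 1032, 1098 and 1063 CPM in shCtr, 870.1, 859 and 918 CPM in shOSGEP#1, 835 and 964 CPM in shOSGEP#2 replicates 1 and 3, and 1190 CPM in the shallow library. In the 8 libraries of the fit, every shOSGEP library lay below every shCtr library in this sum. The sum is built from the values that selected the family, so nothing is read from it. From shCtr to shOSGEP#1 the means of Chmp1a (231 to 131 CPM) and Chmp7 (117 to 25.5 CPM) fell most. Those of Chmp1b, Chmp3 and Chmp5 rose, and the rest fell by less.

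Levels of different genes were compared as CPM per kilobase of the longest protein-coding transcript. In shCtr the order, as mean ± SD with n = 3, began with Chmp1a (108 ± 18.2 CPM per kb), Chmp4b (102 ± 10.5) and Chmp2b (89.4 ± 2.48). Chmp6 followed at 72.2 ± 3.01 CPM per kb, ahead of Chmp2a (47.8 ± 9.49), Chmp7 (44.0 ± 8.03) and Chmp5 (44.0 ± 6.47). Chmp3 (35.5 ± 0.705 CPM per kb), Chmp1b (25.3 ± 3.10) and Chmp4c (0.221 ± 0.0203) came last. Neighbours within their spread were Chmp1a and Chmp4b, Chmp4b and Chmp2b, and the trio of Chmp2a, Chmp7 and Chmp5. In shOSGEP#1, Chmp7 had 9.64 ± 2.17 CPM per kb, between Chmp1b (38.5 ± 14.5) and Chmp4c (0.128 ± 0.0192). In shOSGEP#2 (n = 2) it had 30.4 ± 6.23 CPM per kb, within the spread of Chmp1b (21.3 ± 8.41) and Chmp5 (35.0 ± 4.61). With the median transcript length in place of the longest, Chmp6 (188 CPM per kb) and Chmp3 (133.5) led the order in shCtr.

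Chmp7 also stands apart from its relatives in its coding sequence. It has 451 codons where the other 9 genes have 196 to 232. Transfer RNAs that carry t6A read codons beginning with A (ANN codons), and these make up 22.6% of the codons of Chmp7, against 27.6% to 40.4% in the other 9 and a median of 26.9% over 12577 tested genes (GENCODE M21 transcripts of build GRCm38). Chmp2b has the highest share in the family, above 99.7% of those genes, and Chmp7 is above 19.8% of them. Whether codon content bears on the values was not tested.

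Some members have near copies or overlaps in the genome that could share reads with them. Chmp1a, Chmp2a and Chmp3 have processed pseudogenes that match them over stretches of up to 584, 669 and 672 bases, and the deposited counts list none of these. Exons of Chmp1b lie opposite an antisense gene over 605 of 2524 bases, and those of Chmp3 over 96 bases. No such copy or overlap was found for Chmp7.

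The genes whose levels followed Chmp7 most closely over the 8 libraries were Stard10, Pfkl, Tbc1d2, Atp6v1e1 and Rhoq. Likeness was the root mean square difference between centred log2(CPM + 1) profiles over 8 libraries, and it ranged from 0.159 to 0.251 for these 5, beside a median of 1.04 over 12734 genes. Atp6v1e1, which encodes a subunit of the vacuolar proton pump, had 459.9, 457 and 533 CPM in shCtr, 143, 133 and 97.6 CPM in shOSGEP#1, and 342 and 396 CPM in shOSGEP#2. Stard10, which encodes a lipid transfer protein, had 8.18, 9.63 and 6.004 CPM, then 2.08, 1.06 and 0.912 CPM, then 3.73 and 5.16 CPM. In both genes shOSGEP#1 was lowest and shOSGEP#2 lay between it and shCtr, as the choice by likeness favours. In Tbc1d2, shOSGEP#2 (8.76 and 12.7 CPM) overlapped shCtr (12.05, 12.04 and 13.7 CPM).

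The rest of the machinery was followed with 47 partner genes in 9 lists, of which 46 were tested and Stambpl1 had 0 counts in each of the 9 libraries. In edgeR's quasi-likelihood test at a Benjamini-Hochberg adjusted p under 0.01, 4 of the 46 fell and 0 rose in shOSGEP#1 against shCtr, where 9.67% of all genes tested passed. The median log2 fold change was −0.0694. At an unadjusted p under 0.05 there were 18 of the 46 and 4450 of all 12744, and DESeq2 called 10 lower and 1 higher, and 2419 of 12119 genes in all. In shOSGEP#2 against shCtr, 2 fell and 0 rose (9.55% of all genes passed), with a median of −0.0937. At an unadjusted p under 0.05 there were 17 of the 46 and 4541 of all 12744, and DESeq2 called 2 lower and 2 higher, and 2405 of 12416 genes in all. Between the shRNAs, 3 were higher and 2 lower in shOSGEP#2 (10.8% of all genes passed). Partner groups did not overlap for 26 of the 46 in shOSGEP#1, 22 in shOSGEP#2 and 20 between the shRNAs, beside the shares of all genes given above.

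ESCRT-0 and ESCRT-I gather ubiquitinated cargo upstream of ESCRT-III. Of the 9 ESCRT-I genes, 8 had a log2 fold change below 0 in shOSGEP#1 and 2 of these fell past the threshold, with a median of −0.536. Of all 12744 genes, 6357 had a value below 0 there and 595 fell past the threshold, and no test was made of the list. In shOSGEP#2 against shCtr, 5 of the 9 were below 0 and 4 above (median −0.37), and 0 passed the threshold. Of all 12744 genes, 6806 were below 0 in that comparison and 496 fell past the threshold. Vps37c, an ESCRT-I subunit, had 66.1, 72.8 and 73.1 CPM in shCtr, 22.9, 21.6 and 17.2 CPM in shOSGEP#1, and 56.6 and 95.7 CPM in shOSGEP#2. Among the 8 libraries of the fit the 3 of shOSGEP#1 were lowest, and shOSGEP#2 spanned shCtr. The shallow library had 0 counts. Vps37c fell by 1.79 ± 0.20 (log2, SE) in shOSGEP#1 (edgeR adjusted p = 0.000327), and the difference between the shRNAs was 1.80 ± 0.22 (adjusted p = 0.000326). In shOSGEP#2 against shCtr its log2 fold change was 0.00403 (edgeR adjusted p = 0.992), a value whose sign turned without shCtr replicate 1 (−0.0356) or shOSGEP#2 replicate 3 (−0.386).

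Ubap1, another ESCRT-I subunit, had 94.9, 84.5 and 60.3 CPM in shCtr, 45.9, 43.5 and 35.0 CPM in shOSGEP#1, and 55.5 and 52.0 CPM in shOSGEP#2. All 5 shOSGEP libraries of the fit lay below shCtr, and the shallow library had 0 counts. Ubap1 fell by 0.96 ± 0.19 (log2, SE) in shOSGEP#1 (edgeR adjusted p = 0.00515), and had −0.66 ± 0.21 in shOSGEP#2 (adjusted p = 0.0473). The first call was lost without shCtr replicate 1 (0.0259) or 2 (0.029), or without shOSGEP#1 replicate 2 (0.0202) or 3 (0.0193), as adjusted p. The ESCRT-I genes named for their high counts were Mvb12b, with means of 195 ± 3.99, 136 ± 30.8 and 218 ± 4.73 CPM in shCtr, shOSGEP#1 and shOSGEP#2 (SD), and Mvb12a, with 119 ± 8.80, 104 ± 18.5 and 97.05 ± 36.7 CPM.

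None of the 3 ESCRT-0 and 3 ESCRT-II genes passed the edgeR threshold. At an unadjusted p under 0.05 there was 1 ESCRT-0 gene in shOSGEP#1 and 1 between the shRNAs, and 0 ESCRT-II genes in the 3 comparisons. Hgs, whose product binds ubiquitinated cargo, had 145 ± 22.5, 175 ± 6.45 and 172 ± 21.7 CPM (SD) in shCtr, shOSGEP#1 and shOSGEP#2. Its ESCRT-0 partner Stam2 had 164 ± 11.7, 109 ± 15.9 and 139 ± 4.25 CPM, and was lower in shOSGEP#1 past the threshold with DESeq2, with no filter and without shOSGEP#1 replicate 3. The annotation has a second identifier named Hgs, not among the deposited counts, that shares 2897 of the 2980 exon bases. Among ESCRT-II genes, Vps36 had 102 ± 10.8, 96.5 ± 1.26 and 110.4 ± 24.4 CPM and Vps25 had 92.6 ± 11.1, 94.0 ± 2.93 and 97.5 ± 13.8 CPM, group means that differ by less than the largest SD. Exons of Vps25 share 1103 bases with Ramp2 on the same strand.

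VPS4 takes ESCRT-III apart, and spastin, encoded by Spast, is drawn to CHMP1B to sever microtubules. Spast had 48.3, 59.1 and 64.5 CPM in shCtr, 65.9, 70.0 and 80.2 CPM in shOSGEP#1, and 30.0 and 30.2 CPM in shOSGEP#2. These 2 shOSGEP#2 libraries were below and the shOSGEP#1 libraries above every shCtr library. The shallow library of shOSGEP#2 had 43 counts or 75.6 CPM (exact 95% interval 54.7 to 102), above every shCtr library. Spast fell by 1.02 ± 0.18 (log2, SE) in shOSGEP#2 (edgeR adjusted p = 0.0032) and had 0.32 ± 0.16 in shOSGEP#1 (adjusted p = 0.183), with −1.34 ± 0.19 between the shRNAs (adjusted p = 0.000685). The call against shCtr was lost, as adjusted p, without shCtr replicate 2 (0.0161) or 3 (0.0111), or without shOSGEP#2 replicate 1 (0.0126) or 3 (0.022). Vps4b had 85.9 ± 2.01, 123 ± 25.6 and 108 ± 25.2 CPM (SD) and did not pass the test.

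Brox encodes a Bro1-domain protein that binds CHMP4 and acts at the nuclear envelope. It had 91.6, 104.8 and 89.2 CPM in shCtr, 119.8, 125 and 131 CPM in shOSGEP#1, and 53.0 and 43.0 CPM in shOSGEP#2. The 3 groups did not overlap, with shOSGEP#2 lowest and shOSGEP#1 highest, and the shallow library had 0 counts. Brox fell by 1.08 ± 0.17 (log2, SE) in shOSGEP#2 (edgeR adjusted p = 0.00144), a call lost without shOSGEP#2 replicate 3 (0.0136), and had 0.38 ± 0.14 in shOSGEP#1 (adjusted p = 0.0806). Exons of Aida lie opposite 367 bases of Brox. Between the shRNAs the value was −1.46 ± 0.17 (edgeR adjusted p = 0.000279). Pdcd6ip, which encodes the CHMP4-binding protein ALIX, had 199.7 ± 6.30, 270.2 ± 11.2 and 244 ± 8.65 CPM (SD), and Ptpn23, for the related HD-PTP, had 111 ± 20.2, 155 ± 4.89 and 167 ± 23.4 CPM. Neither passed the edgeR test against shCtr. The deubiquitinase genes Usp8 (118 ± 6.30, 118 ± 2.02 and 127 ± 16.3 CPM) and Stambp (71.3 ± 4.76, 66.3 ± 10.2 and 71.2 ± 15.6 CPM) had overlapping groups. The ESCRT-III-like genes Ist1 (105 ± 7.25, 127 ± 11.3 and 85.6 ± 0.480 CPM) and Chmp1b2 (56.1 ± 0.841, 70.2 ± 7.77 and 56.3 ± 6.86 CPM) did not pass the test.

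At the nuclear envelope, LEMD2 recruits CHMP7. Lemd2 had 58.5, 66.4 and 60.8 CPM in shCtr, 41.8, 41.3 and 27.0 CPM in shOSGEP#1, and 91.2 and 145 CPM in shOSGEP#2. The shOSGEP#1 libraries lay below shCtr and the shOSGEP#2 libraries above it, the shallow one too (724 CPM). The log2 fold change was −0.77 ± 0.21 (SE) in shOSGEP#1 and 0.83 ± 0.23 in shOSGEP#2 (edgeR adjusted p = 0.023 and 0.025, neither under 0.01, but 0.00742 and 0.0094 with no filter, and 0.00389 and 0.00374 with DESeq2), and 1.60 ± 0.23 between the shRNAs (adjusted p = 0.000741). With 1 library left out, the log2 fold change of Lemd2 in shOSGEP#2 against shCtr ran from 0.495 to 1.1. Lmna, which encodes the lamins A and C, had 353, 345 and 332 CPM in shCtr, 219.9, 188 and 176 CPM in shOSGEP#1, and 288 and 277 CPM in shOSGEP#2. Its groups were ordered as for Chmp7, without overlap, but the shallow library of shOSGEP#2 had 914 CPM, above every shCtr library. Lmna fell by 0.83 ± 0.14 (log2, SE) in shOSGEP#1 (edgeR adjusted p = 0.00224), a call lost without shCtr replicate 1 (0.0116) or 2 (0.015) or shOSGEP#1 replicate 2 (0.0146), and had −0.38 ± 0.15 in shOSGEP#2 (adjusted p = 0.109). The other 8 of the 10 nuclear envelope genes did not pass the test in any comparison, among them Tmpo, for the LAP2 proteins, with 616 ± 67.1, 653 ± 22.5 and 466 ± 59.4 CPM (SD).

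Of the 6 abscission genes, all had a log2 fold change below 0 in shOSGEP#1 (median −0.278), as had 6357 of all 12744 genes. In shOSGEP#2 against shCtr, 4 were below 0 and 2 above (median −0.25), 0 passed, and 6806 of all genes were below 0. Between the shRNAs, 3 were above 0 and 3 below. In shOSGEP#1, 1 of the 6 fell past the threshold and 2 had an unadjusted p under 0.05, beside 595 and 4450 of all 12744 genes. Ulk3, a kinase of the abscission checkpoint that phosphorylates ESCRT-III subunits, had 25.2, 31.2 and 21.6 CPM in shCtr, 14.7, 9.62 and 12.2 CPM in shOSGEP#1, and 26.2 and 29.9 CPM in shOSGEP#2. Among the 8 libraries of the fit those of shOSGEP#1 were lowest, and shOSGEP#2 overlapped shCtr. The shallow library had 0 counts. Ulk3 fell by 1.11 ± 0.21 (log2, SE) in shOSGEP#1 (edgeR adjusted p = 0.00456) and was higher by 1.13 ± 0.23 in shOSGEP#2 than in shOSGEP#1 (adjusted p = 0.00621). The first call was lost without shCtr replicate 1 (0.018) or 2 (0.0314) or shOSGEP#1 replicate 2 (0.0238) or 3 (0.014). The second was lost without any 1 of those 4 libraries (adjusted p 0.0105 to 0.0243) or either shOSGEP#2 library. It was also lost with the replicate number as a block (edgeR adjusted p = 0.0121). Aurkb, the checkpoint kinase aurora B, had 88.4 ± 23.3, 41.1 ± 21.9 and 55.4 ± 14.8 CPM (SD), and Racgap1, of the central spindle, had 119 ± 14.3, 119 ± 45.6 and 99.8 ± 17.5 CPM.

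**Figure D3:**
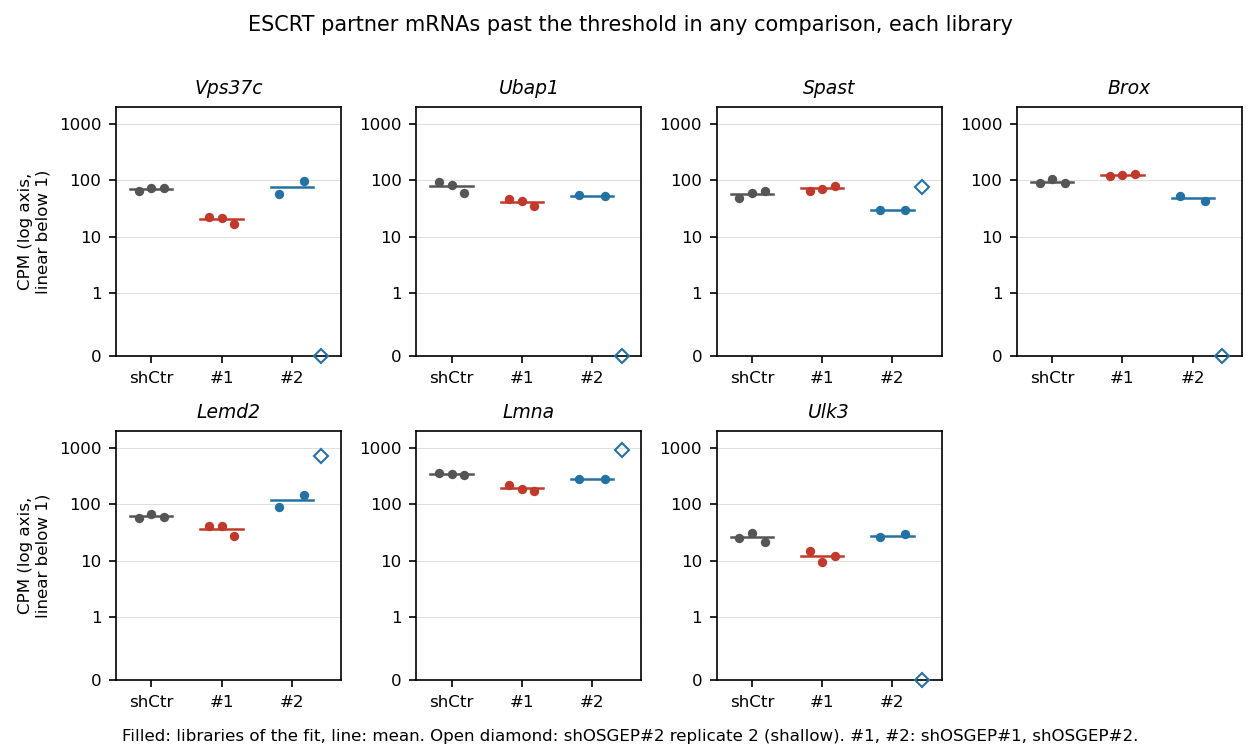
CPM of the 7 partner genes past the edgeR threshold in any comparison (log axis, linear below 1) in each library of shCtr, shOSGEP#1 and shOSGEP#2, with filled points for the 8 libraries of the fit, a line at their group mean and an open diamond for the shallow library. Vps37c lies between 17.2 and 22.9 CPM in shOSGEP#1, under all of its other filled points, and Brox lies at 53.0 and 43.0 CPM in shOSGEP#2.

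Across all genes tested, 637 were higher and 595 lower in shOSGEP#1 than in shCtr, and 721 were higher and 496 lower in shOSGEP#2. Scaled by library totals alone, the second split was 901 higher and 375 lower. With all 9 libraries in the edgeR fit, 0 genes passed in the 3 comparisons, while 620, 1240 and 1325 genes had unadjusted p-values under 0.05, and the calls on partners above were lost. The common dispersion, edgeR's measure of spread between replicates, was 0.42 with the shallow library and 0.0692 without it.

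Osgep, the target of both shRNAs, had 19.1, 19.9 and 15.5 CPM in shCtr, 3.76, 1.15 and 1.53 CPM in shOSGEP#1, and 0.0786 and 2.88 CPM in shOSGEP#2. All 5 shOSGEP libraries lay below shCtr. Its log2 fold changes were −3.10 ± 0.73 and −3.84 ± 0.93 (SE), and with 1 library left out the second ran from −7.86 to −2.78. The edgeR adjusted p-values were 0.0128 and 0.015, not under 0.01. The first was under it without shOSGEP#2 replicate 1 (0.000964) or 3 (0.00092), and the second without shOSGEP#2 replicate 3 (0.00134), which leaves a library with 2 Osgep counts. With no filter they were 0.000639 and 0.000838, and DESeq2 gave 0.00904 for the second. Ddx58, which encodes RIG-I, had 179.9, 184 and 278 CPM in shCtr, 232, 216 and 327 CPM in shOSGEP#1, and 402 and 429 CPM in shOSGEP#2, with 0 counts in the shallow library. The shOSGEP#2 libraries were highest (log2 fold change 0.86 ± 0.23, SE, edgeR adjusted p = 0.0239, or 0.00898 without shCtr replicate 3, 0.00727 with no filter and 0.00283 with DESeq2), and shOSGEP#1 overlapped shCtr (0.26 ± 0.21, adjusted p = 0.427). With 1 library left out, the log2 fold change of Ddx58 in shOSGEP#1 against shCtr ran from 0.0496 to 0.497. The counts do not separate the tagged RIG-I from the endogenous gene.

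Markers of cell identity differed mainly in shOSGEP#2. The 7 melanocyte and melanoma markers were detected in the 8 libraries of the fit, and their summed level was 6336, 6039 and 8473 CPM in shCtr, 6288, 7565 and 6840 CPM in shOSGEP#1, and 2617 and 3374 CPM in shOSGEP#2. Tyrp1 was the most abundant. In edgeR's test 1 of 7 fell in shOSGEP#1 (Tyr) and 5 of 7 fell in shOSGEP#2 (Sox10, Tyr, Dct, Pmel and Mlana), and 4 of 7 were lower in shOSGEP#2 than in shOSGEP#1 (Sox10, Dct, Pmel and Mlana). Of all 12744 genes tested, 595, 496 and 581 were lower in these comparisons, in the same order. The shallow library of shOSGEP#2, not in this fit, had Sox10 at 1089.6 CPM, above every shCtr library (823.8 to 890.2 CPM). Its Dct, Pmel and Mlana (165, 15.8 and 278 CPM) and Tyr (0 counts) lay below every shCtr library. The 5 fibroblast markers summed to 4.44, 6.16 and 7.22 CPM in shCtr, 5.15, 3.64 and 7.26 CPM in shOSGEP#1, and 16.5 and 39.1 CPM in shOSGEP#2, with Col1a2 the most abundant and Dcn at 0 in some libraries of every group. Of the 4 fibroblast markers tested, 2 (Col1a1 and Col1a2) were higher in shOSGEP#2 than in shOSGEP#1, as were 794 of all 12744 genes. Against shCtr edgeR called 0 in either shRNA, with 0 at an unadjusted p under 0.05 in shOSGEP#1 and 2 in shOSGEP#2. Of all 12744 genes, 4450 and 4541 had such a p-value in these 2 comparisons. Leukocyte markers summed to at most 4.02 CPM (most abundant Csf1r, with Cd3e at 0 in all but 1 library), endothelial markers to at most 2.18 CPM (Pecam1) and keratinocyte markers to at most 0.116 CPM (Krt14, with Krt5 and Krt10 at 0 throughout). The part of these markers in the values of the ESCRT genes was not tested.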

How the data were processed

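The 9 libraries measured RNA precipitated with FLAG-tagged RIG-I. By the notes of the submitters and the methods, reads were trimmed with Trim Galore, aligned to GRCm39 with STAR and quantified with Salmon. The gene counts that the authors deposited are whole numbers and not normalized, although Salmon estimates need not be whole. How the genes were selected is not given in the sources used here. The methods name a stranded library protocol, but how strand was used in the counting is not given. All 9 columns were used.

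The members and the gene lists were chosen with earlier results of these data known. CPM is the count scaled to the total counts of the library. Tests used edgeR 4.0.16 in R 4.3.3 on 8 libraries, shOSGEP#2 replicate 2 left out for its depth, with filterByExpr, TMM scaling, 1 coefficient per group and the quasi-likelihood test, at a Benjamini-Hochberg adjusted p under 0.01 over 12744 genes. The threshold follows the methods, where DESeq2 was used. The 10 members were part of the fit, and their p-values are not reported. Each standard error was obtained by dividing the log2 fold change by √F. The edgeR and DESeq2 calls against shCtr were tested on simulated data with 200 changed genes. The comparison between the shRNAs and the other steps were not simulated.

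Named genes were the 10 members, Osgep and Ddx58, partner genes past the threshold in any comparison, the 2 tested genes of each partner list with the highest mean CPM, the 5 genes most like Chmp7 and the most abundant gene of each marker list. Other marker genes were named after their values were seen.

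Alternatives were all 9 libraries, DESeq2 1.42.0, RLE scaling, library totals without TMM, no filter, at least 10 counts in each library, an adjusted p under 0.05, the replicate number as a block (also with all 9 libraries), leaving out each library, and the median transcript length. Names, lengths and codons came from GENCODE M21 on GRCm38, an earlier build, matched by identifier for 22285 of 22396 genes, so no coordinates are given. All 83 genes of the lists matched 1 identifier each. Intervals are exact binomial 95% intervals. Plots and codon counts used Python 3.11.15, numpy 2.4.6, pandas 2.3.3 and matplotlib 3.10.9.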

Additional observations from a re-analysis of the deposited data

Results flagged for a closer look

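Some ESCRT genes stood apart between the 2 shRNAs, with 5 of 46 partner genes past edgeR's threshold, a share near the 10.8% of all genes. Chmp4c had a log2 fold change of 2.85 in shOSGEP#2 against shOSGEP#1, with the libraries of the shRNAs on opposite sides of every shCtr library, and the difference was not tested on data other than those that selected the family. In edgeR's test of the difference between the shRNAs, the log2 fold change was 1.80 for Vps37c, 1.60 for Lemd2 and 1.13 for Ulk3, all higher in shOSGEP#2. It was −1.34 for Spast and −1.46 for Brox, both lower in shOSGEP#2. The call on Ulk3 was lost with the replicate number as a block (edgeR adjusted p = 0.0121). It was also lost without shCtr replicate 1 or 2, shOSGEP#1 replicate 2 or 3, or either shOSGEP#2 library.

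The shallow library, shOSGEP#2 replicate 2, was left out of the comparisons and had some genes far above the control libraries. The lower end of the exact 95% interval lay above every shCtr library for Chmp2a (420.0 CPM), Chmp2b (346 CPM) and Chmp4c (104 CPM). Among the partner genes named by rule the same held for Lemd2 (724 CPM), Lmna (914 CPM), Mvb12b (554 CPM), Mvb12a (360 CPM) and Ptpn23 (443 CPM). It also held for Lmnb2, Lemd3 and Cc2d1b (360, 65.0 and 114 CPM), which were named after their values were seen. Partner genes had counts for 18 of 47 in this library and for 46 in each of the others, so the high values stood beside many at 0.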

How the results depend on the processing

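Over all alternatives the log2 fold change of Chmp7, a description since the family was selected on these data, ran from −2.40 to −2.08 in shOSGEP#1, from −0.83 to −0.47 in shOSGEP#2 and from 1.38 to 1.77 between the shRNAs.

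In the order shOSGEP#1 against shCtr, shOSGEP#2 against shCtr and shOSGEP#2 against shOSGEP#1, the genes past the threshold numbered 1232, 1217 and 1375. DESeq2 gave 2419, 2405 and 2592, and an adjusted p under 0.05 gave 2797, 2674 and 2952. With all 9 libraries edgeR gave 0, 0 and 0, with 620, 1240 and 1325 at an unadjusted p under 0.05. Partner genes past the threshold numbered 4, 2 and 5. DESeq2 gave 11, 4 and 9, an adjusted p under 0.05 gave 12, 7 and 10, and no filter gave 7 in the first comparison. With all 9 libraries edgeR gave 0, 0 and 0 partners, with 1, 3 and 6 at an unadjusted p under 0.05.

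Leaving out 1 library gave 318 to 1458, 518 to 1471 and 743 to 1504 genes. In the first comparison the count was 427, 318 and 763 without shCtr replicates 1, 2 and 3, and 429 and 724 without shOSGEP#1 replicates 2 and 3. In the second it was 584, 518 and 766 without shCtr replicates 1, 2 and 3 and 631 without shOSGEP#2 replicate 3. In the third it was 821 without shOSGEP#1 replicate 2 and 743 without shOSGEP#2 replicate 3. Partner counts ran from 1 to 4, 0 to 2 and 4 to 5. The first was 1 without shCtr replicate 1 or 2, or shOSGEP#1 replicate 2. The second was 1 without shCtr replicate 2 or 3, and 0 without shOSGEP#2 replicate 3, with 10 of 46 at an unadjusted p under 0.05 in edgeR. Where shOSGEP#2 keeps 1 library, that library is assumed to vary like the other groups.

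With the replicate block, edgeR called 1380, 1238 and 1393 genes and 5, 3 and 6 partners, and Ulk3 (adjusted p = 0.0121) lost its call between the shRNAs. With the replicate block and all 9 libraries it called 0, 0 and 0 genes and 0, 0 and 0 partners, with 407, 787 and 842 genes and 0, 1 and 5 partners at an unadjusted p under 0.05. Deviations from group means correlated across genes by 0.027 to 0.286 for the same number (7 pairs) and −0.286 to 0.161 for others (14 pairs). Not all pairs are independent, as the 2 shOSGEP#2 libraries mirror each other.

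Among the members, log2 fold changes of Chmp1a, Chmp2a, Chmp2b, Chmp3 and Chmp4b turned sign in at least 1 alternative of at least 1 comparison, and those of the other 5 in none. Some of the other log2 fold changes turned sign, none past the threshold in either direction. With all 9 libraries the values in shOSGEP#2 against shCtr were −0.543 for Vps37c, 0.0825 for Lmna and −0.502 for Ulk3, and Ubap1 had −0.24 between the shRNAs. With the replicate block and all 9 libraries they were −0.922, 0.0208, −0.901 and −0.551, and Ddx58 had −0.188 in shOSGEP#2 and −0.429 between the shRNAs. Vps37c in shOSGEP#2 had −7.35e-05 with no filter, −0.0356 without shCtr replicate 1 and −0.386 without shOSGEP#2 replicate 3 (range over left-out libraries −0.386 to 0.308). Ulk3 in shOSGEP#2 had −0.00366 and −0.1 without shCtr replicates 1 and 3, and −0.0542 without shOSGEP#2 replicate 3 (range −0.1 to 0.162). Osgep between the shRNAs had 0.322 without shOSGEP#2 replicate 1 (range −4.75 to 0.322). The cause was not tested.

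For the 16 partner genes given by level alone, 22 of 48 log2 fold changes turned sign in at least 1 alternative, the largest of these 0.401 in size. At an adjusted p under 0.01, 5 of the 48 passed in at least 1 alternative (Stam2, Pdcd6ip and Aurkb in shOSGEP#1, and Ist1 and Tmpo between the shRNAs). At an adjusted p under 0.05, 7 of the 48 passed (Stam2, Mvb12b and Pdcd6ip in shOSGEP#1, Tmpo in shOSGEP#2, and Mvb12b, Ist1 and Tmpo between the shRNAs).

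With the median transcript length, the shCtr level per kilobase was 54.82 for Chmp2a, 93.15 for Chmp2b, 133.5 for Chmp3 and 188.3 for Chmp6, since their median transcripts are shorter than the longest.

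The depth of the shallow library leaves mRNAs under 5.27 CPM below its floor, and some genes far above that floor elsewhere had 0 counts there, such as Ddx58, Pdcd6ip and Stam2, where the mean level of the other shOSGEP#2 libraries would have given 236, 139 and 79 counts. Differences in shOSGEP#2 rest on 2 libraries, and low counts limit the precision for Chmp4c and Osgep.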
